A study of Mus musculus with 72 samples.

Results

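Livers labelled SIRT6 knockout (KO) were compared with livers labelled wild type (WT) at zeitgeber time 20 (ZT20, 20 h after lights on), late in the active phase of the mouse. The comparison rests on 6 of the 72 arrays of the series, chosen by their titles: 3 replicates labelled SIRT6 KO and 3 replicates labelled WT of the same cohort. Both groups carry the strain label "129 mixed", were kept in 12 h of light and 12 h of dark, and the KO is described as specific to the liver. The sources used here do not name the Cre driver, the deleted exons, or the age and sex of the mice, and do not say whether KO and WT mice were littermates. The labels name no treatment. The other 30 arrays of the cohort, 3 KO and 3 WT at each of ZT0, ZT4, ZT8, ZT12 and ZT16, supplied an estimate of the spread and a comparison in arrays that are not from ZT20. The series asked how SIRT6 and its relative SIRT1 contribute to the daily cycle of liver transcripts.

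SIRT6 is a nuclear NAD-dependent enzyme that removes acetyl and longer acyl groups from histones. It is known for restraining glycolytic, lipid and ribosomal protein genes, and for binding the clock activators CLOCK and BMAL1. In the liver the clock and the feeding rhythm both drive daily cycles of lipid, bile acid and cholesterol synthesis and of the building of ribosomes, which in mice peaks with the night-time meal.

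Levels are given as log2(intensity + 16) of 1 probe set per gene, and differences as KO minus WT on that scale, which understates changes of weak genes. A gene was called when its limma p, adjusted by the Benjamini-Hochberg method over 13308 genes and 6 times together, was under 0.05. The median probe set intensity of the 6 arrays lay between 44.5 and 49.6, replicate arrays correlated at 0.963 to 0.988 and arrays of different labels at 0.953 to 0.981, and 0 pairs of arrays held identical values. Nothing in the labels says that replicates are separate mice, and p-values here cover only the spread among the arrays, which may be technical. The KO-labelled arrays were somewhat brighter among the stronger probe sets: their 75th percentile of intensity was 177, 158 and 161 against 156, 151 and 154 in WT. Over all genes tested 64.7% were higher in the KO-labelled arrays, with a median difference of 0.06. The direction of this general shift turned with the scaling: 48.7% were higher after quantile normalization (median -0.01) and 35.7% after centring each array on its median (median -0.06).

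The targeted gene was examined first. The probe set of Sirt6 read 7.18, 7.01 and 7.13 in the WT arrays (replicates 1, 2 and 3) and 7.81, 7.88 and 7.85 in the KO-labelled arrays. The KO-labelled arrays were thus the higher ones, without overlap, by 0.74 ± 0.12 (SE), or 1.67-fold (limma adjusted p = 0.0054). A second probe set, which is listed for Sirt6 and 4 predicted genes together, read 9.50, 9.53 and 9.28 against 9.38, 9.33 and 9.30. The sources used here do not say whether these probes fall inside the deleted exons, and probes outside them would check nothing. The first probe set was also higher in the KO-labelled arrays at the other 5 times, by 0.42 to 0.63, and the cause was not tested. The arrays are therefore named by label here, and all directions below depend on the labels. The sister sirtuin Sirt1 read 8.44 to 8.65 in WT and 8.36 to 8.71 in the KO-labelled arrays, which overlapped.

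At ZT20, 29 of 13308 genes were called, 0.218% of those tested, 26 of them higher in KO-labelled livers (0.195%) and 3 lower (0.0225%). In each of the 29 the 3 arrays of one label lay wholly to one side of the other 3, which over all genes was so for 14.8% on the higher and 4.22% on the lower side. Those shares also turned with the scaling, from 1964 genes higher and 561 lower to 961 and 1009 after quantile normalization and to 581 and 1743 after centring. The differences ran from 0.39 to 2.26 in size with a median of 0.81, and 12 of them were at least 2-fold. Without adjustment 1379 genes had a p under 0.05, 1119 higher and 260 lower. The split depended on the scaling: after quantile normalization 18 genes were higher and 6 lower, and after centring, which moved every difference down by 0.12, 18 were higher and 7 lower. Under both scalings 18 of the 29 stayed called. The 11 that did not were Qpct, Nt5dc2, Fastkd2, Msantd4, Zwint, Cox10, Ephb4, Timm22, Ift27, Adsl and the predicted gene 4930534D22Rik.

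Single arrays moved the count too. It was 19 without KO-labelled replicate 1, 19 without WT replicate 3 and 17 without KO-labelled replicate 3, and 24 to 27 without one of the other 3 arrays. With the spread taken from the 6 arrays at ZT20 alone it was 5, of which 2 were among the 29. Of the 29 genes, 13 stayed called whichever array was left out: Apba2, Blmh, Cox6b2, Cuedc2, Efcab2, Gdpd1, Msantd4, Plpp7, Qpct, Sirt6, Srgap3, Tceal1 and Zfp518a. The other 16 were lost without at least 1 array.

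**Figure D1:**
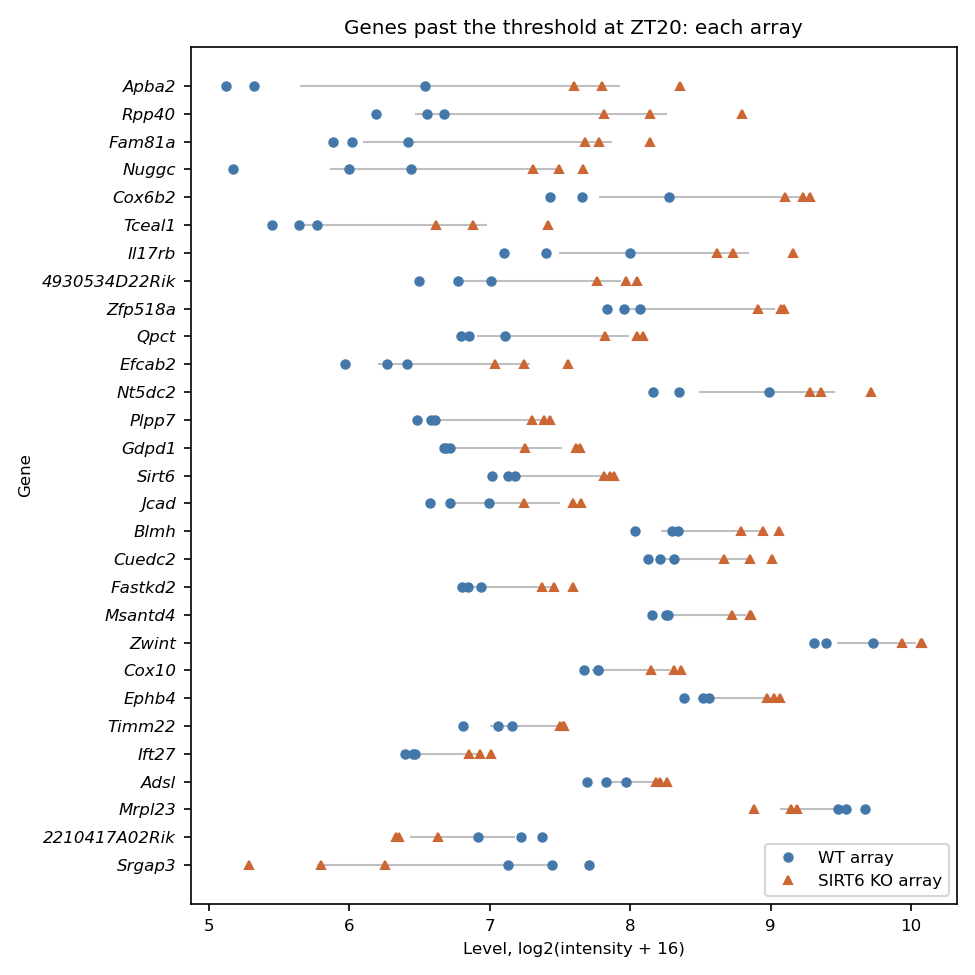
Level of each of the 29 called genes in each of the 6 arrays at ZT20, as log2(intensity + 16). Circles are WT arrays, triangles SIRT6 KO-labelled arrays, and the grey line joins the group means; in each row the circles and triangles do not overlap, and 26 of the 29 rows have the triangles on the right.

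Among the called genes the largest increase was that of Apba2, an adaptor that binds the amyloid precursor protein. It read 6.54, 5.32 and 5.12 in WT and 8.35, 7.60 and 7.80 in KO-labelled livers. The highest WT array, replicate 1, lay below all 3 KO-labelled arrays, and the difference was 2.26 ± 0.37 (adjusted p = 0.0054). Its WT means, from 5.06 to 5.96 over the 6 times, lay under the 6.00 that a gene's mean over all 72 arrays had to reach. It was thus tested through its level in other arrays, among them the KO-labelled ones, with means from 7.23 to 7.92. Nuggc and Tceal1, described next, also had a WT mean at ZT20 under 6.00. Nuggc, a nuclear GTPase described in germinal centre B cells, read 5.18, 6.00 and 6.44 against 7.31, 7.66 and 7.50, a difference of 1.62 ± 0.27 (adjusted p = 0.0064). Il17rb, a receptor chain for the cytokine interleukin 25, read 7.99, 7.40 and 7.10 against 9.16, 8.61 and 8.73. Its difference of 1.34 ± 0.23 (adjusted p = 0.0064) was again free of overlap, and in both labels replicate 1 was the highest array. Fam81a read 6.41, 5.88 and 6.02 against 8.14, 7.68 and 7.78, or 3.39-fold (adjusted p = 0.031).

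Rpp40 encodes a protein subunit of RNase P and RNase MRP, the ribonucleoproteins that trim transfer RNA and ribosomal RNA precursors. It read 6.67, 6.55 and 6.19 in WT and 8.80, 7.81 and 8.14 in KO-labelled livers, a rise of 1.78 ± 0.31 or 3.43-fold (adjusted p = 0.0094). Of 9 other subunits tested 0 were called, 8 were higher in the mean, by a median of 0.18, and 4 had no overlap between the labels (44.4%, against 14.8% of all genes). After quantile normalization 6 were higher and 1 had no overlap, and after centring 5 and 2. Of the subunits named for their small p, Rpp38 was higher by 0.61 ± 0.24, Rpp30 by 0.36 ± 0.13 and Rpp25l by 0.24 ± 0.13 (adjusted p from 0.42 to 0.71).

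Among regulators of transcription, Tceal1, of the transcription elongation factor A-like family, read 5.65, 5.77 and 5.45 in WT and 7.42, 6.62 and 6.88 in KO-labelled livers. It rose by 1.35 ± 0.19 (adjusted p = 0.0017), all 3 WT arrays lying below 6. Of its relatives, Tceal8 was 0.74 higher and Tceal9 0.43 higher with overlapping arrays, and Tceal5 was lower without overlap (-0.28), none of them called. The zinc finger gene Zfp518a read 8.07, 7.96 and 7.83 against 9.08, 8.91 and 9.09. Its rise of 1.07 ± 0.17 (adjusted p = 0.0045) was called under each of the 17 alternatives of processing and without each single array. Msantd4, which has a Myb/SANT domain, rose by 0.59 ± 0.10 (adjusted p = 0.0082). The zinc finger gene Zfp956 came just short, at 0.55 ± 0.12 and an adjusted p of 0.051.

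Several of the called genes encode mitochondrial proteins, a grouping formed after the genes were seen and not tested. Cox6b2, the testis form of a cytochrome c oxidase subunit, read 8.27, 7.43 and 7.66 in WT and 9.10, 9.28 and 9.23 in KO-labelled livers, a rise of 1.42 ± 0.21 (adjusted p = 0.0025). Its widely expressed counterpart Cox6b1 read 10.58 to 10.75 and 10.60 to 10.73, ranges that overlapped, with a difference of 0.02 ± 0.10. Cox10, which acts in a step towards the haem A of the same enzyme, read 7.67, 7.77 and 7.77 against 8.31, 8.15 and 8.36, a rise of 0.54 ± 0.10 (adjusted p = 0.014). Timm22, the channel of an inner membrane protein translocase, rose by 0.51 ± 0.10 (adjusted p = 0.039), while Timm44 and Timm50, at 0.30 and 0.26 higher without overlap, were not called. Of 13 other Timm genes tested 11 were higher, with a median of 0.04 and 0 called, and 5 were higher after centring.

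Fastkd2, an RNA-binding protein needed to assemble the mitochondrial ribosome, read 6.85, 6.94 and 6.80 in WT and 7.46, 7.37 and 7.59 in KO-labelled livers, a rise of 0.61 ± 0.12 (adjusted p = 0.023). Mrpl23, a protein of the large mitochondrial ribosomal subunit, went the other way, with 9.48, 9.67 and 9.54 in WT against 9.19, 9.15 and 8.88. It fell by 0.49 on the log2 scale (SE 0.09, adjusted p = 0.016), every KO-labelled array lying below every WT array. Of 41 other Mrpl genes tested 0 were called, 36 were higher by a median of 0.13, and 17 had no overlap with the KO-labelled arrays higher (41.5%, against 14.8% of all genes). That number was 5 after quantile normalization, with 26 higher, and 3 after centring, with 22 higher. Those with the smallest p were Mrpl46, higher by 0.38, Mrpl3 by 0.30 and Mrpl35 by 0.25 (adjusted p from 0.12 to 0.23).

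Enzymes and proteases formed another set. Qpct, which cyclizes N-terminal glutamine of peptides, read 6.79, 7.11 and 6.85 against 7.82, 8.05 and 8.09, a rise of 1.07 ± 0.18 (adjusted p = 0.0077). Blmh, the cysteine protease bleomycin hydrolase, rose by 0.71 ± 0.11 (adjusted p = 0.0054), from 8.03, 8.34 and 8.30 to 8.94, 8.79 and 9.06. The smallest rise that was called was that of Adsl, adenylosuccinate lyase of purine synthesis, from 7.69, 7.83 and 7.97 to 8.21, 8.18 and 8.26, or 0.39 ± 0.08 (adjusted p = 0.043). All 3 had separate groups of arrays. Gdpd1, a glycerophosphodiester phosphodiesterase, rose by 0.81 ± 0.12 with WT arrays between 6.67 and 6.71, and Plpp7, of the phospholipid phosphatase family, by 0.82 ± 0.11 (adjusted p = 0.0036 and 0.0017). Nt5dc2, of a nucleotidase-like family, rose by 0.95 ± 0.20, at the edge of the threshold (adjusted p = 0.049).

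The remaining increases were in Efcab2, an EF-hand protein (1.06 ± 0.17), Jcad, a protein of endothelial cell junctions (0.73 ± 0.13), Cuedc2, a ubiquitin-binding protein (0.63 ± 0.09), Zwint, of the kinetochore (0.55 ± 0.11), Ephb4, an ephrin receptor (0.53 ± 0.11), and Ift27, a GTPase of intraflagellar transport (0.49 ± 0.10), with adjusted p from 0.0017 for Cuedc2 to 0.043 for Ift27. Ephb4 read 8.52, 8.38 and 8.56 in WT and 9.02, 8.98 and 9.07 in KO-labelled livers. In bulk liver, more cells of a type and more RNA per cell cannot be told apart, and this holds for Jcad and Ephb4, both known from endothelium. The 10 endothelial markers listed for this comparison were all higher in the mean, by a median of 0.13, with 0 called, and 7 of 10 were higher after centring. Their summed intensity was 7121, 6359 and 7077 in WT and 8096, 7283 and 7469 in KO-labelled livers, without overlap, and their part in Jcad and Ephb4 was not tested. These sums were not rescaled, and the KO-labelled arrays were somewhat brighter among the stronger probe sets. After centring the median of the 10 markers was 0.01 and 0 of them were without overlap. Cox10, Ephb4, Timm22 and Ift27 lie outside the rule for naming genes and were named after their values were seen.

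Besides Mrpl23, Srgap3 and the predicted gene 2210417A02Rik (-0.73 ± 0.15, adjusted p = 0.049) were the genes that fell. Srgap3, a protein of the SLIT and ROBO guidance pathway, read 7.44, 7.71 and 7.13 in WT and 5.80, 6.26 and 5.29 in KO-labelled livers. The lowest WT array was 7.13 and the highest KO-labelled array 6.26, and the level fell by 1.65 on the log2 scale (SE 0.26, 3.13-fold, adjusted p = 0.0045). Its relative Srgap2 read 7.93 to 8.28 and 7.88 to 8.45, which overlapped.

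The called genes were spread over 15 chromosomes in the gene order of RefSeq's GRCm38.p6, which placed 27 of the 29. Pairs within 25 protein-coding genes of each other were Timm22 with Blmh, 7 genes apart, and Il17rb with Nt5dc2, 19 genes apart. Of the 25 protein-coding genes on each side of Sirt6, 26 were tested and 0 were called. In these neighbours 19 of 26 were higher, where 64.7% of all genes were, with a median difference of 0.15 against 0.06 over all genes. The neighbours were not read under the other scalings.

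Most of these differences were also present at other times of day, in arrays that did not enter the means at ZT20. Those arrays lent their spread to the calls at ZT20, so genes of small spread were favoured in both tests. The share that passed at the other times is thus no independent test. In the mean difference over ZT0, ZT4, ZT8, ZT12 and ZT16, 26 of the 29 genes passed the threshold in the same direction, where 6% of all genes passed. The 29 were chosen at ZT20, so a larger difference there is no finding. Of the 29, 26 had 1 sign at all 6 times. The 3 that did not pass at the other times were Fastkd2 (0.11 there), Cox10 (0.11) and Adsl (-0.04), beside 0.61, 0.54 and 0.39 at ZT20. Apba2 differed by 1.74 to 2.23 at each of the other times, Nuggc by 1.27 to 1.63 and Zwint by 0.42 to 0.66. Il17rb differed by 0.46 to 0.87 there against 1.34 at ZT20, and Srgap3 by -0.19 at ZT12 and -1.68 at ZT0 beside -1.65 at ZT20.

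**Figure D2:**
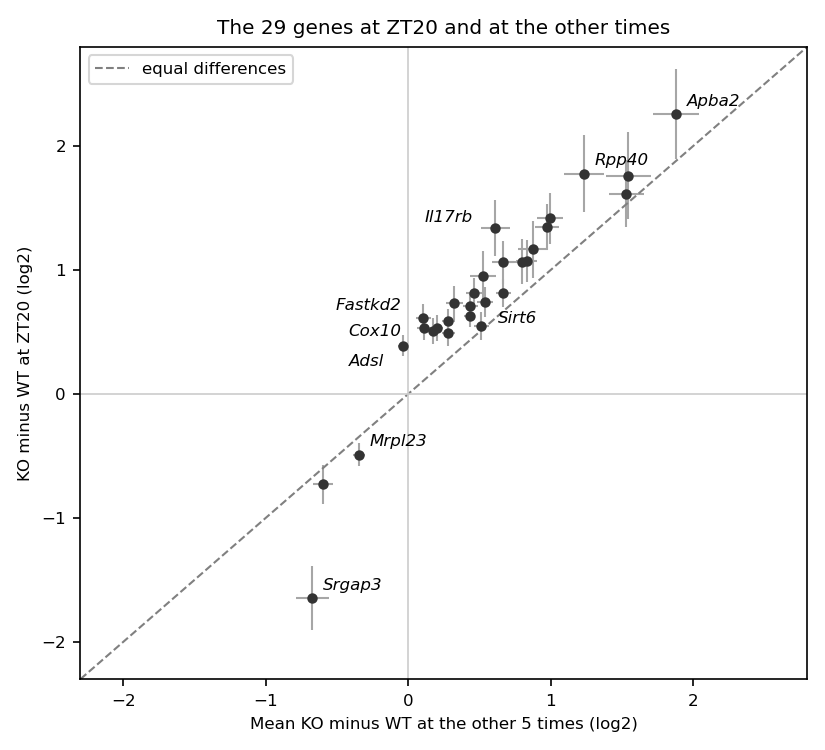
KO minus WT at ZT20 (vertical axis, log2) against the mean KO minus WT at the other 5 times (horizontal axis, log2) for the 29 called genes, with bars of 1 standard error in each direction. Fastkd2, Cox10 and Adsl stand near 0 on the horizontal axis, the other 26 genes have the same sign on both; the genes were chosen at ZT20, so their distance from the dashed line of equal differences is no finding.

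The test of whether the difference at ZT20 departed from that at the other times called 1 gene of 13308 (0.00751%), and 1284 genes had an unadjusted p under 0.05. The gene was Slc25a48, a mitochondrial carrier of the SLC25 family. It read 7.86, 7.75 and 7.86 in WT and 8.16, 8.01 and 8.21 in KO-labelled livers at ZT20, higher without overlap by 0.30 ± 0.08 (adjusted p = 0.17). At ZT0, ZT4 and ZT8 its difference was -0.35, -0.24 and -0.44, and at ZT12 and ZT16 it was -0.10 and 0.05. The departure was 0.52 ± 0.09 (adjusted p = 0.041) and was not called after quantile normalization or centring, or without any 1 of 5 of the 6 arrays (all but KO-labelled replicate 2).

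Of the 29 called genes 0 passed this test, with adjusted p from 0.36 for Adsl to 0.94 for Zwint. The genes next in order after Slc25a48 and Adsl were Adarb1, an RNA adenosine deaminase, Naa25, of an N-terminal acetyltransferase, the nuclear export receptor Xpo4 and the nucleoside diphosphate kinase Nme1. At ZT20 they were higher without overlap by 0.33 to 0.44, and at the other times their mean difference was between -0.14 and -0.08. On the other side stood Trabd2b, Htr2b, Cd248, Prss27, Bpifb6 and Chsy3, without overlap at ZT20, with differences from -0.59 to -0.36 there and from 0.09 to 0.15 at the other times. All 10 had an adjusted p of 0.42 and are given as values, and a second probe set of Chsy3 was 0.08 higher at ZT20 where the one used was -0.46.

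Several genes with larger differences than most of the 29 did not pass the threshold. Cyp2d12, a cytochrome P450, read 5.52, 5.38 and 5.0 in WT and 9.05, 9.86 and 9.70 in KO-labelled livers at ZT20, a gap of 4.23 ± 1.49 (adjusted p = 0.40). Ptgds, a prostaglandin D synthase, read 6.47, 8.46 and 5.45 against 9.71, 10.24 and 11.40, or 3.66 ± 0.94 (adjusted p = 0.15). Hamp2, a paralogue of hepcidin, read 6.07, 5.48 and 4.96 against 8.53, 8.45 and 8.77, or 3.08 ± 0.84 (adjusted p = 0.19). All 3 were picked from the genes without overlap at ZT20, so their lack of overlap is no finding. The standard errors come from all 36 arrays of the cohort and are 0.84 to 1.49 here, against 0.08 to 0.37 in the called genes.

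Next in size among the named, uncalled genes without overlap were Lrtm1 (2.44, limma adjusted p = 0.068), the sulfotransferase Sult2a7 (2.38, 0.41) and the surface protein Ly6f (2.26, 0.054). The serine protease Tmprss4 (2.07, 0.18), the serpin Serpina12 (2.00, 0.80) and Cyfip2 (1.94, 0.32) followed. In Sult2a7 KO-labelled replicate 1 read 6.81, close to the 5.96 to 6.46 of WT, and the other KO-labelled arrays 9.86 and 9.02. Serpina12 had 1 low WT array, 5.29 in replicate 1, beside 8.71 and 8.23. On the lower side stood Tcf24 (-2.49, adjusted p = 0.53), Olfm3 (-1.21, 0.12), Tmem184c (-1.14, 0.42), Tc2n (-1.11, 0.068), the tyrosine kinase gene Frk (-0.85, 0.81) and the semaphorin receptor gene Nrp2 (-0.67, 0.16). Ly6f, Tc2n and Nrp2 were called after both quantile normalization and centring, at 2.27, -1.22 and -0.79 after the former.

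Across the 23 gene lists drawn up for liver, 1 held a called gene, and that was the sirtuin list through Sirt6 itself. Of these lists the one whose median lay farthest above that of all genes was ribosome biogenesis, the nucleolar factors that transcribe, cut and modify ribosomal RNA. Of its 27 genes 26 were higher in KO-labelled livers at ZT20 and 16 had no overlap between the labels (59.3%, against 14.8% of all genes), with 0 called. The median difference was 0.25, 0.18 above that of all genes. The first place was lost after quantile normalization, where the male-biased (0.163) and sulfotransferase (0.151) lists lay farther above all genes than this one (0.145). Without WT replicate 1 or KO-labelled replicate 2 or 3 the female-biased list lay farthest above, and without WT replicate 2 the sulfotransferases did. Quantile normalization left 24 of 27 higher with a median of 0.14 and 10 without overlap, and centring left 23 of 27 with a median of 0.13 and 9 without overlap. Without any single array the median stayed between 0.22 and 0.27, and without both replicate 1 arrays, a choice made after the data were seen, it was 0.20.

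The promoters of the 4 genes of this list with the largest separate differences and 1 promoter entry are shown, since they are the members on which the description turns. Each line gives the 150 bases before the transcript start from RefSeq's GRCm38.p6, with capitals for any match to the motifs named after them.
Wdr43 (chr17:71616065-71616214, plus strand): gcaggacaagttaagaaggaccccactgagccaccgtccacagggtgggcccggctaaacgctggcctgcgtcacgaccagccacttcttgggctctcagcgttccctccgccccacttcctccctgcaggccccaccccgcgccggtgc
Mybbp1a (chr11:72441177-72441326, plus strand): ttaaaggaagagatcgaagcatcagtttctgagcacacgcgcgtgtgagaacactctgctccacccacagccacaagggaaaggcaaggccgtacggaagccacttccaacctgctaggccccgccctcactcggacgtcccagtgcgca
Nop56 (chr2:130274262-130274411, plus strand): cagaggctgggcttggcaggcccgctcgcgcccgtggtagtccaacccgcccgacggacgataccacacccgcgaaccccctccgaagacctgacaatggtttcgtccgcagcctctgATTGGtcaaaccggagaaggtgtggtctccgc
Heatr1 (chr13:12395225-12395374, plus strand): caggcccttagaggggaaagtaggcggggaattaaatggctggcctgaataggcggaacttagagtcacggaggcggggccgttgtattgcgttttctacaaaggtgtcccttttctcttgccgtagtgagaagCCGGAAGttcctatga

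Motifs were searched on both strands of the 250 bases before the start, for 22 of the 27 genes that have an entry and for 10455 of the genes tested. The E-box CACGTG, the site bound by CLOCK and BMAL1 and by MYC, was present in 1 of the 22 (4.55%), Rrn3, and in 9.68% of all. The ETS core CCGGAAG was present in 3 of 22 (13.6%) and 13.8% of all, the NRF1 core GCATGCGC in 1 of 22 (4.55%) and 4.58%, the CCAAT box in 6 of 22 (27.3%) and 39.3%, and the D-box core TTATGNAA in 0 of 22 and 2.53%. In the 24 called genes with an entry the E-box was present in 1 (4.17%), Msantd4. The capitals in Nop56 are a CCAAT box on the minus strand and those in Heatr1 an ETS core; a missing match says only that these letters are not in the window.

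Wdr43, a factor of the processome that cuts the small-subunit RNA, read 8.45, 8.67 and 8.61 in WT and 9.13, 9.05 and 9.11 in KO-labelled livers, or 0.52 ± 0.15 (adjusted p = 0.23). Mybbp1a, a nucleolar MYB-binding protein, read 8.92, 9.0 and 9.18 against 9.51, 9.48 and 9.54, or 0.48 ± 0.12 (adjusted p = 0.15). Nop56, a core protein of the particles that methylate ribosomal RNA, was 0.47 ± 0.16 higher (adjusted p = 0.40), and Dkc1, the pseudouridine synthase dyskerin, read 8.05, 8.29 and 8.20 against 8.64, 8.53 and 8.45 (0.36 ± 0.10, adjusted p = 0.19). In each of the 4 every KO-labelled array was above every WT array. Heatr1 (0.42), Nop58 (0.37), Ubtf (0.29) and Polr1a (0.28), the last 2 a transcription factor and the largest subunit of RNA polymerase I, were higher without overlap, whereas Myc itself differed by 0.06 ± 0.54.

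The median of the list in each array was 8.12, 8.27 and 8.20 in WT and 8.53, 8.39 and 8.44 in KO-labelled livers, and relative to the median of each array's genes 0.45, 0.66 and 0.55 against 0.68, 0.70 and 0.68. The groups were apart on both scales, narrowly so on the second. The list's median difference at ZT0, ZT4, ZT8, ZT12 and ZT16 was -0.08, -0.20, -0.01, -0.04 and 0.02, beside 0.25 at ZT20. Over all genes these medians were -0.02, -0.03, -0.01, 0.01 and -0.01, beside 0.06 at ZT20. The list was brought forward for its median at ZT20, so a larger median there is no finding. At ZT4 only 2 of its 27 genes were higher. The mean of the list over the array median went in WT from 0.71 ± 0.14 (SD, n = 3) at ZT12 through 0.62 ± 0.02 at ZT16 to 0.47 ± 0.06 at ZT20. In KO-labelled livers it went from 0.68 ± 0.02 through 0.64 ± 0.10 to 0.60 ± 0.03. The KO-labelled arrays ran from 0.57 to 0.63 at ZT20, above the WT range of 0.43 to 0.53, and from 0.26 to 0.30 at ZT4, below the WT range of 0.34 to 0.63.

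**Figure D3:**
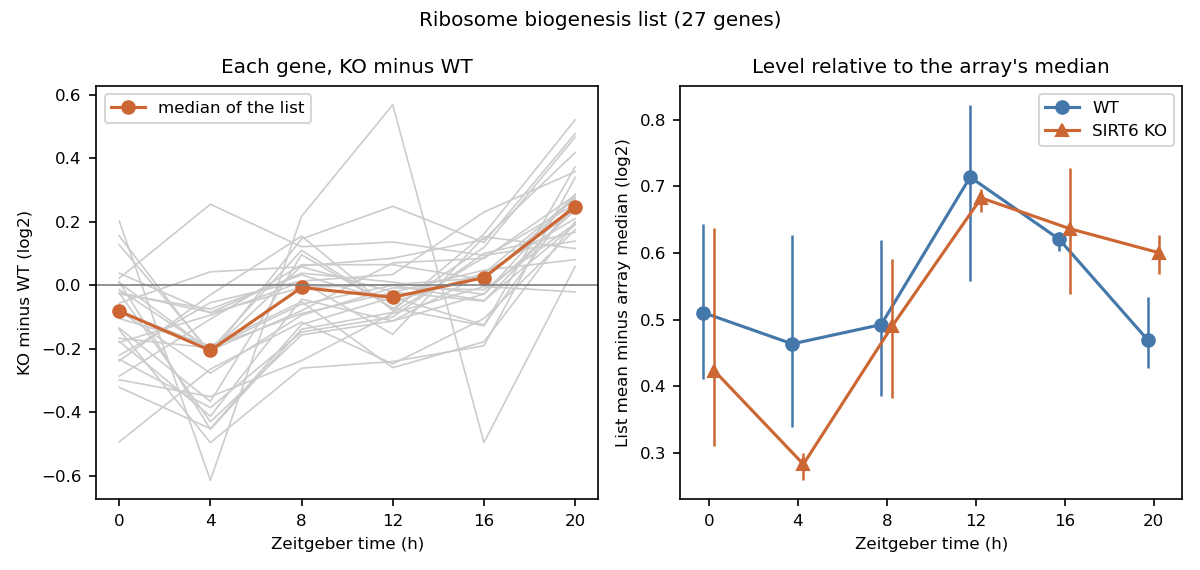
Ribosome biogenesis list (27 genes) by zeitgeber time. Left, KO minus WT of each gene (grey lines, log2) with the list's median (orange), which is 0.25 at ZT20 and between -0.20 and 0.02 before; right, the mean of the list minus the array's median (log2), with the group mean of 3 arrays as the point and the lowest to highest array as the bar, WT in blue and KO-labelled in orange.

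Over the 17 core clock genes measured, each of the 6 arrays was nearest to the WT mean of ZT20, at a distance of 0.18 to 0.29 (mean absolute difference, log2, the array itself left out of the mean), and farther from the next nearest time, at 0.33 to 0.44. The activators Arntl, which encodes BMAL1, and Clock read 9.17 to 9.29 and 10.31 to 10.52 in WT, and 9.23 to 9.37 and 10.33 to 10.42 in KO-labelled livers, with overlap in both. None of the 17 was called, the lowest adjusted p being 0.76 for the repressor Cry1 (0.33 ± 0.20). Without overlap were Cry2 (0.23), the repressors Bhlhe40 (0.28) and Bhlhe41 (0.37), and Nr1d1, the nuclear receptor REV-ERB alpha. Nr1d1 read 6.95, 7.07 and 7.56 in WT and 6.83, 6.27 and 6.29 in KO-labelled livers (-0.73 ± 0.45, limma adjusted p = 0.77). These are 3 of 17 higher and 1 lower, where 14.8% and 4.22% of all genes were so. After quantile normalization 1 was higher and 2 lower without overlap, and after centring 0 and 3. Per1 had 1 low WT array, 6.85 in replicate 3, beside 8.00 to 8.22 in 4 of the other arrays.

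**Figure D4:**
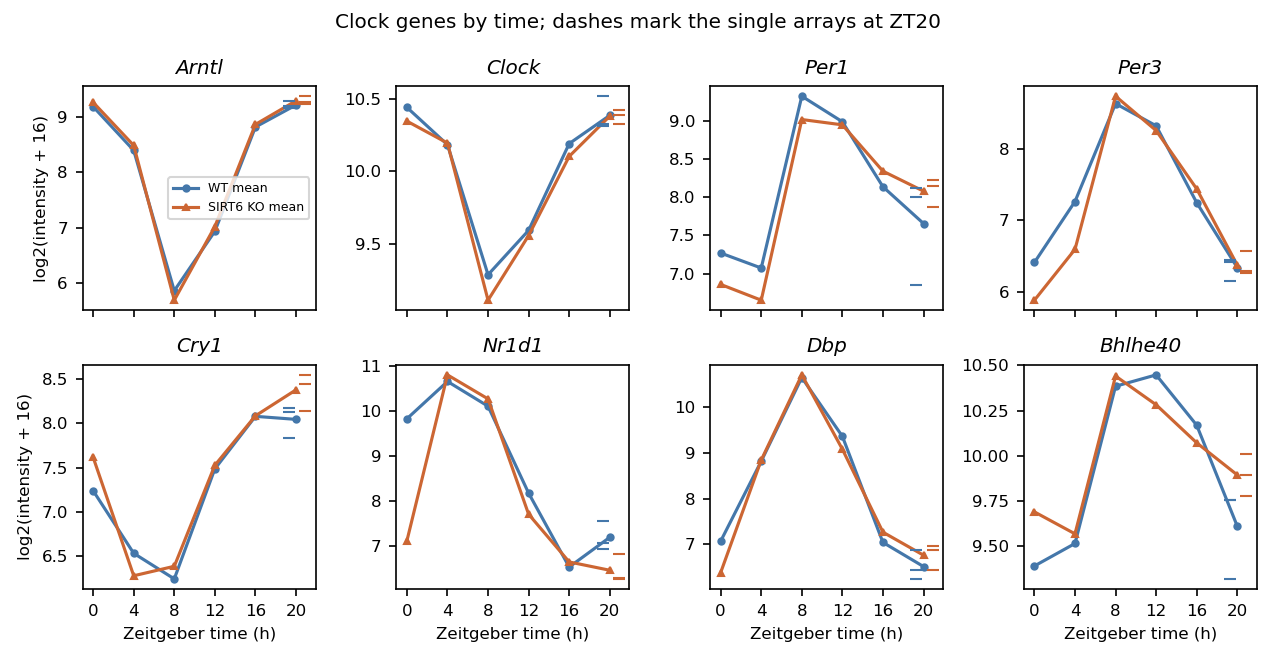
Mean level of 8 clock genes, log2(intensity + 16), at each zeitgeber time in WT (circles, 3 arrays) and SIRT6 KO-labelled livers (triangles, 3 arrays); dashes beside ZT20 are its single arrays. The lines of Arntl, Clock and Dbp lie close together through ZT20, and Nr1d1 is without overlap there with the KO-labelled arrays lower.

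Metabolic lists held 0 called genes. Of the cholesterol genes, the enzymes from acetyl-CoA to sterol with their SREBP2 control, 5 of 19 were higher, with a median of -0.07, 0.13 below all genes, and 0 separated the labels. Mvd (-0.29), Tm7sf2 (-0.24), Insig1 (-0.23) and Stard4 (-0.22) were its lowest members, and after quantile normalization 3 of 19 were higher. Centring shifted every difference by -0.122, and the highest member stood at 0.121. After centring 0 of 19 therefore had to be higher, which says nothing about direction. Single arrays decided the direction of this list: 0 of 19 were higher without WT replicate 1 (median -0.24) and 1 without KO-labelled replicate 3 (-0.14), but 13 without WT replicate 2 (0.04) and 10 without KO-labelled replicate 1 (0.01). The SREBP1 lipogenic list had 14 of 21 genes higher with a median of 0.03, its regulator Srebf1 reading 9.91 to 10.14 in WT and 10.29 to 10.42 in KO-labelled livers, higher without overlap by 0.32 ± 0.23 (adjusted p = 0.83).

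The glycolytic list had 11 of 18 genes higher (median 0.03) and 0 that separated the labels. Its regulator Pfkfb3 was 0.48 ± 0.21 higher and muscle-type phosphofructokinase Pfkm 0.35 ± 0.17 higher, both with overlapping arrays. Fatty acid and PPARA genes had 19 of 30 higher with a median of 0.04, and Cd36, the fatty acid receptor, had a difference of -0.69 with overlapping arrays. Lipoprotein genes had 9 of 19 higher with a median of -0.0040, with Apoa4 at 11.16 to 11.42 against 11.88 to 12.03 (0.71 ± 0.26, adjusted p = 0.43). The gluconeogenic list had a median of 0.01 and the bile acid list -0.02, in which Baat, which conjugates bile acids, read 10.01, 10.39 and 10.27 against 9.52, 9.94 and 9.84, lower without overlap (adjusted p = 0.71). In the heat shock and ER folding list 16 of 28 were higher, with a median of 0.0038. Without single arrays the medians ran from -0.03 to 0.08 in the lipogenic, 0.01 to 0.08 in the glycolytic, 0.04 to 0.11 in the fatty acid, -0.02 to 0.07 in the lipoprotein, -0.03 to 0.01 in the gluconeogenic, -0.10 to 0.03 in the bile acid and -0.05 to 0.07 in the heat shock list. The other medians took both signs, while the fatty acid and glycolytic medians stayed above 0 without any single array. So did the median of all genes, at 0.03 to 0.09. After quantile normalization the fatty acid median was 0.012 and the glycolytic one -0.0074. Relative to all genes the fatty acid median was -0.02 before and 0.02 after quantile normalization, and the glycolytic one -0.03 and -0.0021. Without single arrays these relative medians ran from -0.04 to 0.07 and from -0.04 to 0.02. Centring shifted every difference by -0.12, and none of the 7 medians was as high as 0.12. All 7 therefore had to fall below 0 after centring, which says nothing about their direction.

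**Figure D5:**
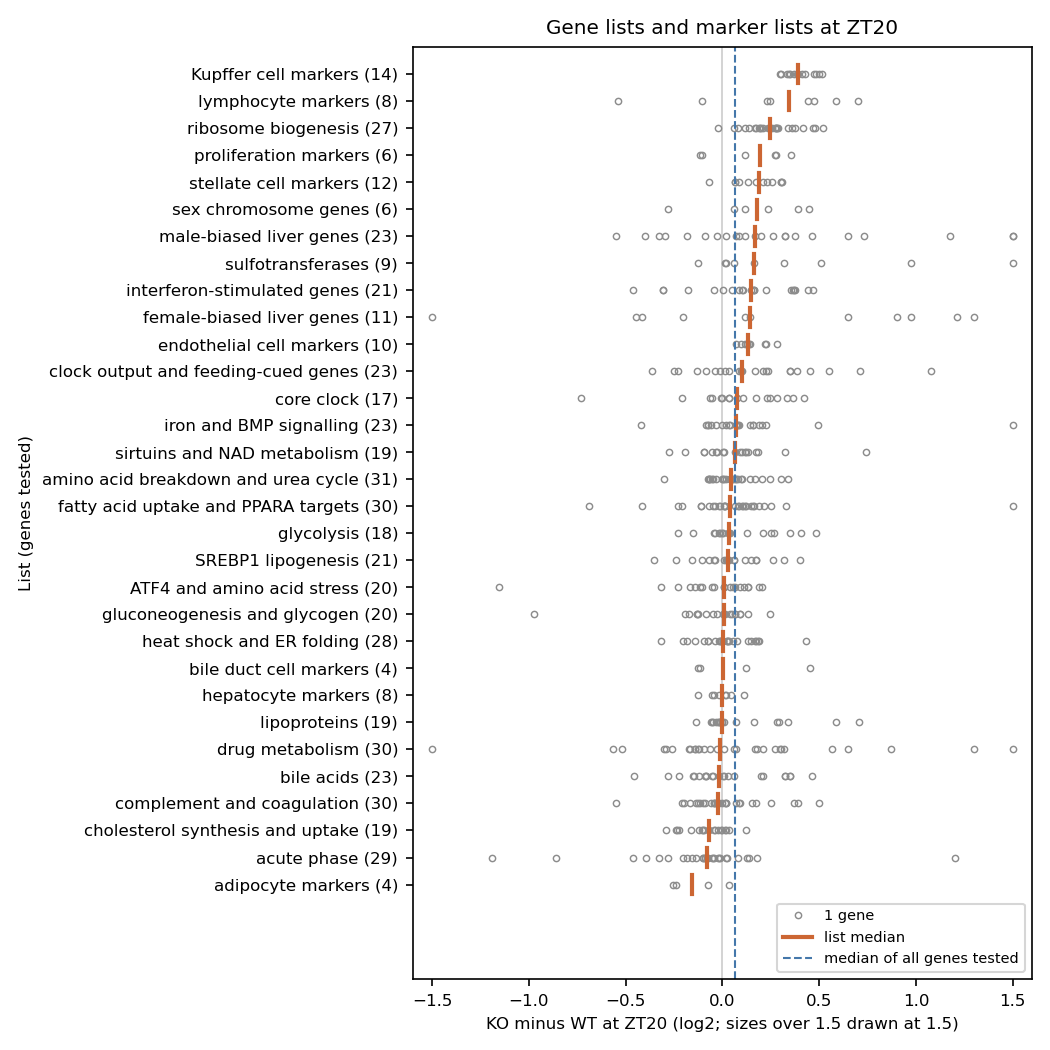
KO minus WT at ZT20 (log2) of each gene (circles) in the 31 lists with at least 4 genes tested, with the list's median (orange bar) and the median of all genes tested (dashed line, 0.06). The Kupffer cell, lymphocyte and ribosome biogenesis lists lie farthest to the right, the acute phase, cholesterol and adipocyte lists farthest to the left; 8 points beyond 1.5 are drawn at the edge.

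The defining hepatocyte markers were high and alike: summed over 8 genes their intensity was 43136 to 44448 in WT and 42812 to 44213 in KO-labelled livers. Markers of Kupffer cells, the macrophages of the liver, were 14 of 14 higher in the mean, by a median of 0.39, with 0 called and 1, Folr2, without overlap. Their summed intensity was 11359, 4023 and 8338 in WT and 13355, 9687 and 7060 in KO-labelled livers, so the groups overlapped. This rested on WT replicate 2: without it 7 of 14 were higher and the median was 0.00020, without KO-labelled replicate 1 the median was 0.19, and without WT replicate 1 and KO-labelled replicate 3 it was 0.68 and 0.61. Lymphocyte markers were 6 of 8 higher with a median of 0.35, and their sum was highest in replicate 1 of each label, at 1559 and 2467 beside 703 to 1029 in the other 4 arrays. Without KO-labelled replicate 1 or WT replicate 2 only 4 of the 8 were higher, with a median of -0.01 and -0.02, and without KO-labelled replicate 3 the median was 0.62. Stellate cell markers were 11 of 12 higher with a median of 0.19 and overlapping sums, and 9 of 12 with a median of 0.05 and 0.06 without KO-labelled replicate 1 and WT replicate 3. Of the 11 marker lists 0 held a called gene, and the part of these cells in the called genes was not tested.

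Acute phase genes had 7 of 29 higher, with a median of -0.08. This ran from 2 of 29 (median -0.17) without WT replicate 2 to 13 of 29 (-0.02) without WT replicate 3, with 4 of 29 (-0.12) without KO-labelled replicate 1 and 11 of 29 (-0.04) without KO-labelled replicate 2. The metallothioneins Mt1 and Mt2 spread within both labels, Mt2 reading 11.72, 9.10 and 11.85 in WT and 11.13, 8.77 and 9.21 in KO-labelled livers. The Y-linked genes Kdm5d and Uty were measured in all 6 arrays, at 7.45 to 8.97. Genes with a male bias in liver had 16 of 23 higher (median 0.17) and those with a female bias 7 of 11 (median 0.14), among them the male-biased Cyp2u1, at 9.61, 9.94 and 10.16 against 10.75, 11.24 and 11.26 (1.18 ± 0.28, adjusted p = 0.11), and the female-biased Cyp2a4, at 11.21, 10.68 and 9.39 against 11.91, 11.61 and 11.64 (1.30 ± 0.44, adjusted p = 0.37). Both were without overlap. Without overlap were 3 male-biased genes higher and 2 lower, and 3 female-biased genes higher and 0 lower. Over all genes the shares were 14.8% and 4.22%. The lowest female-biased member stood at -1.75, farther from 0 than Cyp2a4, and the lowest male-biased one at -0.55. The medians of these lists turned with single arrays: the female-biased one was 0.54 without WT replicate 1, -0.04 without WT replicate 2, -0.10 without WT replicate 3 and 0.01 without KO-labelled replicate 1, and the male-biased one was -0.00046 without WT replicate 1.

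The same time point in the other cohort of the series, 3 livers labelled SIRT1 KO and 3 labelled WT, all of the strain C57BL/6, was read for the 29 genes. In that comparison 0 genes of 13308 were called by limma (0%), and 1050 had an unadjusted p under 0.05 (7.89%). Over all genes 41.7% were higher in the SIRT1 KO-labelled arrays. Of the 29 genes 9 had the same sign there and 20 the opposite one, 4 had an unadjusted p under 0.05 (Il17rb, Fam81a, Zfp518a and 2210417A02Rik), and the lowest adjusted p was 0.39. Apba2 differed by -0.05 ± 0.15 there, Sirt6 by -0.13 ± 0.12 and Il17rb by -0.67. The difference between the cohorts was not tested, and the strain differed between them as well.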

How the data were processed

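The authors deposited probe set intensity on a linear scale, made with Affymetrix Expression Console 1.1.1 and PLIER 2.0 per the submitters' processing notes. How the arrays were normalized, and to which genome build the probes refer, is not given in these sources, so no probe positions are printed. Each column was matched to 1 sample by its name, and 0 columns were left over.

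Of the 41345 probe sets on the array 23521 have a single gene symbol and were used; 1814 with several symbols and 16010 without one were not. A gene with several probe sets was read from the one that is brightest in the mean of the 72 arrays. Levels are log2(intensity + 16), and the lowest 40% of genes (under 6.00) were left out. limma 3.58.1 in R 4.3.3 was fitted to 12 group means over the 36 arrays of the SIRT6 cohort, with an intensity trend. P-values were adjusted by the Benjamini-Hochberg method over 13308 genes and 6 times together, at a threshold of 0.05, two-sided. The SIRT1 cohort was fitted in the same way. The steps were tested on simulated data. Precision is limited by having 3 arrays per label.

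The comparison, the gene lists and the rule for named genes were chosen with earlier results of these data known. The rule names the targeted gene, Sirt1, the core clock, up to 20 called genes and the 10 largest separate differences per direction, up to 4 members of each list by p, up to 6 genes per direction in the test against the other times, and up to 3 relatives of each called gene. Predicted genes were named only where few were concerned. Promoter sequences are RefSeq's, build GRCm38.p6. The alternatives tried were quantile normalization, array medians set to be equal, pseudocounts of 1 and 64, filters of 0 and 60%, a replicate block, other sample sets, array weights, other settings of limma, all probe sets and each array left out.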

Additional observations from a re-analysis of the deposited data

Results flagged for a closer look

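Slc25a48 stood out because its difference between the labels at ZT20 departed from that at the other 5 times by a test of the departure itself: 0.52 ± 0.09 on the log2 scale (limma adjusted p = 0.041), from 0.30 at ZT20 and -0.22 at the other times. It was the 1 gene of 13308 so called, and 1284 genes had an unadjusted p under 0.05 in this test.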

How the results depend on the processing

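All 29 called genes kept their sign in each alternative in which they were tested, and the calls depended on the estimate of the spread. The count of 29 (26 higher, 3 lower) became 18 with the lowest 60% of genes left out (17 and 1), 5 with the 6 arrays alone (5 and 0; 2 of them among the 29), 60 with all 72 arrays (54 and 6), 434 with array weights (373 and 61), 46 when adjusted over ZT20 alone (41 and 5) and 16 at a threshold of 0.01 (15 and 1). Lower calls were 6 after quantile normalization and 7 after centring. Leaving out 1 array gave 17 to 27 genes, 14 to 25 higher and 1 to 5 lower; without both replicate 1 arrays, an alternative added after the data were seen, it gave 17 (14 higher).

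Of the called genes, 26 also passed at the other 5 times; that count became 15 with the lowest 60% left out, 51 with all 72 arrays, 191 with array weights, 16 at the threshold of 0.01, 16 to 23 without 1 array and 16 without both replicate 1 arrays. The 1 gene that departed from the other times became 0 after quantile normalization, centring, no filter, the replicate block, all 72 arrays and the threshold of 0.01, 0 or 1 without 1 array, 0 without both replicate 1 arrays and 158 with array weights. The 6 arrays alone give no value for the other times. The causes were not tested.

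Same-numbered WT and KO-labelled arrays deviated together at correlations of 0.53, 0.32 and 0.096. For replicate 1 this lay above the best correlations with another number (-0.29 for its WT array and -0.08 for its KO-labelled array). The labels do not call the numbers pairs, and they were not taken as pairs. With the replicate block 27 genes were called, 25 of them among the 29, and 39 with the block and the 6 arrays alone (33 higher, 6 lower), 12 of them among the 29. The 6 arrays alone gave 5 without the block. WT replicate 2 correlated better with KO-labelled replicate 3 (0.41) than with its own number.

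Other probe sets of Hif1a, Cox7b and Tef differed in sign from those used. With 3 arrays per label, wide spreads limit what can be called.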
